A study of Mus musculus with 16 samples.

Results

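The comparison of oestrogen receptor alpha knockout with wild type mice on day 6 of nephritis rests on 4 of the 16 arrays of the series. They were chosen by their titles, 2 knockout and 2 wild type arrays labelled 6 days, each from a separate female mouse. Wild type mice were C57Bl/6. Knockout mice carried the strain label B6.ER⍺KO, a knockout of the receptor that Esr1 encodes. The sources used here do not give the age of the mice, nor which part of Esr1 was removed and in which cells. All 4 mice had received sheep nephrotoxic serum into the peritoneum at 8 ul per g, 6 days before harvest. Another 4 mice, 2 of each genotype, were labelled untreated and supply the comparison without serum. The 8 arrays at 18 hours and 2 weeks after the same serum are used only where they are named. RNA was taken from glomerular extracts of kidney cortex, and 10 ng of it was amplified and labelled for each array. The series asks how signalling through this receptor bears on lipid metabolism and on glomerulonephritis.

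The glomerulus is the filter of the kidney, built of podocytes, endothelium and mesangial cells. Serum raised against its basement membrane binds there, activates complement and draws in leukocytes, and so starts an antibody-mediated nephritis. Oestrogen receptor alpha is a nuclear receptor that changes transcription when oestrogen binds it. The mouse kidney tubule is known for a large set of carriers and enzymes that differ between males and females under the control of androgens, oestrogens and the pattern of growth hormone release.

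Expression was measured for 30142 genes, each by 1 probeset, as deposited log2 values between 2.22 and 19.93. The medians of the arrays at 6 days were 5.66 and 5.57 in wild type and 5.63 and 5.6 in knockout, and replicate arrays correlated across genes at 0.995 and 0.994. A transformation beyond log2 of scanner signal is unstated, since 152 genes lay above the largest value of a 16-bit scanner. Values stay in deposited log2 units, with each difference as knockout minus wild type, and no fold of RNA is read from them. With 2 arrays a group precision is low, and standard errors (SE) come from the spread between replicates over the 4 groups at 6 days and untreated. At 18 hours both arrays numbered replicate 2 went against their labels: the list mean of 21 male-biased kidney genes stood at 10.79 and 15.34 in wild type and 14.56 and 10.52 in knockout. At 2 weeks the knockout replicates stood apart, at 15.82 and 12.27 for that mean. Neither time enters the values below unless it is named.

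Esr1 itself was not lower in the arrays labelled knockout. It stood at 6.70 and 7.01 in wild type and at 7.37 and 7.29 in knockout at 6 days. Both knockout values lay above both wild type values, a difference of 0.48 ± 0.13 (SE, n = 2; limma adjusted p = 0.203). The part of Esr1 that the probeset reads was not analysed here, so this signal checks neither the deletion nor the labels. Of 15 listed oestrogen receptor target genes 10 were measured, and 0 of these differed at 6 days, with a median difference of 0.00. As only 0.889% of all genes differed, a count of 0 among 10 carries little information. Among them Pgr, the progesterone receptor gene, read 5.28 and 5.0 in wild type and 4.97 and 5.08 in knockout, and Greb1 stood at 4.81 to 4.82 in all 4 arrays. Both genes lay below the array medians, where a loss would be hard to see.

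At 6 days 268 of 30142 genes (0.889%) differed between the genotypes at a limma adjusted p under 0.05, and these are the genes named as called. Of them 121 (0.401%) were higher and 147 (0.488%) lower in knockout, and 3290 genes had an unadjusted p under 0.05. Every count of called genes in a list below is to be read against these shares of all genes. Differences of the called genes ran from -7.80 to 9.16 with a median size of 1.59, while the median over all genes was -0.02. More than 2 log2 units separated the genotypes at 52 of the higher and 45 of the lower genes. The count depends on single arrays: it was 59 without wild type replicate 1 at 6 days, 81 without wild type replicate 2, 151 without knockout replicate 1 and 176 without replicate 2 of the untreated knockout. Across all 8 fits that each left out 1 array, 52 genes were called every time, 24 higher and 28 lower. Fitted with the 4 arrays at 6 days alone, 113 genes (0.375%) were called. With all 16 arrays, whose spread includes the 18-hour pairs, 2 genes (0.00664%) were called, C4b and C4a.

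The widest differences lay in tubule carriers and in enzymes of steroid, fatty acid and drug metabolism. Slc7a13, a carrier of acidic amino acids, led the genes higher in knockout, and Cyp4a14, a fatty acid hydroxylase, led those lower. In each of the 15 largest rises and 15 largest falls both knockout arrays lay outside both wild type arrays, as the rule for naming them required. Over all genes both knockout arrays lay above both wild type arrays in 15.8% and below both in 20.7%.

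**Figure D1:**
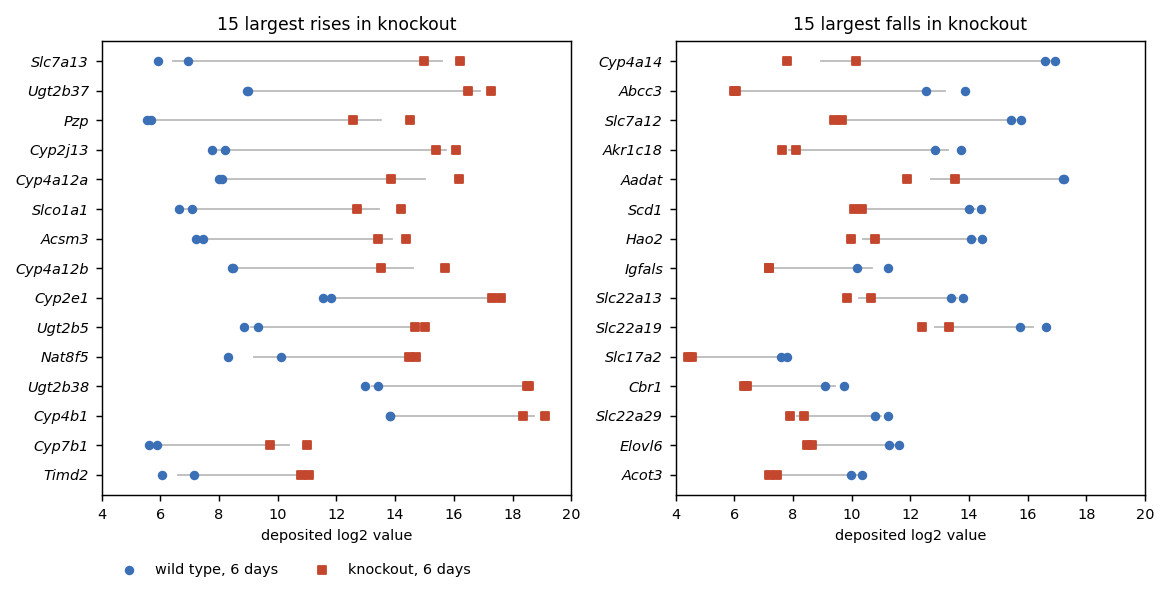
Deposited log2 values of the 15 largest rises (left) and 15 largest falls (right) among called genes, with wild type arrays as blue circles, knockout arrays as red squares and a grey line between the group means (n = 2 per group). In Slc7a13 the arrays read 6.94 and 5.93 in wild type against 16.20 and 14.99 in knockout, and in Cyp4a14 16.94 and 16.60 against 7.80 and 10.14.

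Complement component 4, which is cleaved during classical and lectin pathway activation and marks surfaces with its fragment, was higher in knockout. C4b read 6.08 and 6.89 in the wild type arrays and 9.87 and 10.52 in the knockout arrays. The groups lay well clear of each other, and the difference of their means was 3.71 ± 0.30 (SE, n = 2; limma adjusted p = 0.00288). Its neighbour C4a, also named sex-limited protein, read 5.76 and 6.05 in wild type and 7.91 and 7.81 in knockout. Again both knockout arrays were above both wild type arrays, with a difference of 1.95 ± 0.12 (limma adjusted p = 0.00111). These are close copies of each other, and their probesets may share signal. Both were called in each of the 8 fits that left out 1 array, at limma adjusted p up to 0.0288 and 0.0144.

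Without serum the C4 genes differed less. In untreated mice C4b was at 6.14 and 6.27 in wild type and 6.96 and 7.30 in knockout, a difference of 0.93 ± 0.30 (SE, n = 2; limma adjusted p = 0.278). C4a was at 5.70 and 5.80 against 6.22 and 6.29, a difference of 0.50 ± 0.12 (limma adjusted p = 0.139). The groups did not overlap in either gene, but neither passed. From untreated to 6 days C4b gained 3.07 ± 0.30 in knockout (limma adjusted p = 0.0461, with 20 genes or 0.0664% called) and 0.28 ± 0.30 in wild type (limma adjusted p = 0.747, with 6 genes or 0.0199% called). The test of the change in the genotype difference itself gave 2.78 ± 0.42 for C4b (limma adjusted p = 1.0) and 1.45 ± 0.17 for C4a (limma adjusted p = 0.607). That second value is the smallest adjusted p of this test over all genes. At 2 weeks C4b read 7.42 and 7.19 in wild type and 8.03 and 8.17 in knockout, and C4a 6.34 and 6.57 against 7.03 and 6.62, again with both knockout arrays on top.

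Of 26 complement genes measured, 2 were called, C4a and C4b, and the list's median was -0.01, with 11 positive and 15 negative differences. In 5 genes both knockout arrays lay above both wild type arrays (15.8% of all genes), and in 5 below (20.7% of all genes). Cfb, the protease of the alternative pathway, was nearest to the threshold, at 12.63 and 12.85 in wild type and 14.23 and 14.03 in knockout, a difference of 1.39 ± 0.28 (SE, n = 2; limma adjusted p = 0.0892). Leaving out either untreated wild type array brought the number of called complement genes to 3. The chains of C1q, the recognition molecule of the classical pathway, differed by -0.30 (C1qb), -0.14 (C1qa) and 0.05 (C1qc), and the inhibitor gene Serping1 by -0.49. The 7 Fc gamma receptor genes, whose products bind immune complexes, had 0 called and a median of -0.08.

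Leukocyte and interferon genes gave few calls at 6 days. Tyrobp, an adaptor of activating receptors on myeloid cells, was the only called gene of 22 macrophage and monocyte markers. It read 6.85 and 6.81 in wild type and 6.10 and 5.96 in knockout, with no overlap and a difference of -0.80 ± 0.09 (SE, n = 2; limma adjusted p = 0.0142). In untreated mice the groups overlapped, at 5.73 and 5.86 against 5.74 and 5.78. From there it gained 1.03 ± 0.09 in wild type (limma adjusted p = 0.0447) and 0.27 ± 0.09 in knockout (limma adjusted p = 0.266), while the test of that change in the genotype difference gave -0.76 ± 0.13 (limma adjusted p = 1.0). Its call was lost without either wild type array at 6 days or without knockout replicate 2, at limma adjusted p up to 0.116. Csf1r, the receptor for macrophage colony stimulating factor, was at 9.35 and 9.41 against 8.54 and 7.93 (-1.15 ± 0.31, limma adjusted p = 0.198). The macrophage list as a whole had 15 negative and 7 positive differences with a median of -0.17, and its mean was 6.79 and 6.78 in wild type and 6.48 and 6.66 in knockout.

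Of 27 interferon response genes 24 had a negative difference, 19 of the list with both knockout arrays below both wild type arrays (20.7% of all genes), and the median was -0.39 against -0.08 in untreated mice. Only Gbp3, a guanylate-binding GTPase, was called, and the count was 3 without knockout replicate 2 at 6 days. It stood at 9.30 and 9.18 in wild type and 6.95 and 7.29 in knockout, a difference of -2.12 ± 0.16 (SE, n = 2; limma adjusted p = 0.00258) that held in all 8 fits without 1 array. Gbp3 already differed by -1.68 ± 0.16 without serum (limma adjusted p = 0.00677). Bst2, the membrane tether of budding viruses, differed at 6 days only by value, at 8.47 and 8.17 against 7.35 and 7.56 (-0.87 ± 0.16, limma adjusted p = 0.0711), after 6.95 and 7.26 against 7.36 and 7.52 in untreated mice. Ifi27l2a, an interferon-inducible gene outside that list, was called at 6.2 and 6.07 against 5.22 and 5.43 (-0.81 ± 0.11, limma adjusted p = 0.022), and its untreated groups overlapped. Its call was lost without either wild type array at 6 days, either untreated wild type array or knockout replicate 1, at limma adjusted p up to 0.15.

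Of 29 chemokine and cytokine genes 2 were called, both higher in knockout. Il34, the second ligand of the Csf1r receptor, read 7.24 and 8.46 in wild type and 9.87 and 10.60 in knockout, a difference of 2.38 ± 0.39 (SE, n = 2; limma adjusted p = 0.0479). Ccl20, a ligand of Ccr6, was at 5.48 and 5.6 against 6.11 and 6.03 (0.53 ± 0.09, limma adjusted p = 0.0471). Both lie just under the threshold: the Il34 call survived only the fit without wild type replicate 2 at 6 days, and Ccl20 was lost in all 8, with limma adjusted p up to 0.15 and 0.192. The B cell attractant Cxcl13 pointed the other way without passing, at 10.48 and 9.41 in wild type and 7.49 and 7.77 in knockout (-2.31 ± 0.52, limma adjusted p = 0.129). Among lymphocyte genes 0 of 15 T and NK cell markers and 1 of 10 B and plasma cell markers were called, the immunoglobulin heavy chain gene Ighm (-0.73 ± 0.11, limma adjusted p = 0.0338), a call lost in all 8 fits without 1 array. The lists of 14 neutrophil and 9 MHC class II genes had 0 called, with medians of -0.11 and 0.05.

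**Figure D2:**
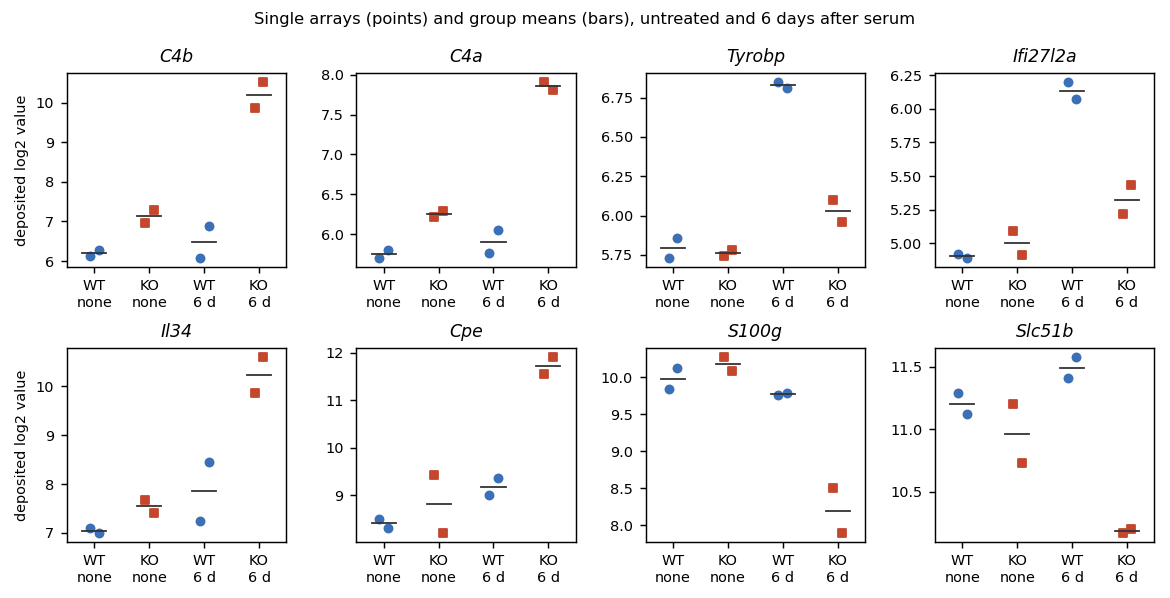
Deposited log2 values of 8 called genes in single arrays (points, 2 per group) with group means (bars), for wild type (WT, blue circles) and knockout (KO, red squares) without serum (none) and at 6 days (6 d). C4b and C4a stand out in knockout at 6 days, at 9.87 and 10.52 and at 7.91 and 7.81, while Tyrobp and Ifi27l2a are raised in wild type at 6 days.

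Of 17 genes of the IGF and prolactin axis 3 were lower in knockout, Cish, Socs2 and Igfals. Cish and Socs2 encode feedback inhibitors of cytokine receptor signalling that STAT5 induces, and Igfals encodes the subunit that holds IGF1 in its ternary complex in blood. The 300-base promoter windows of Cish and Igfals in RefSeq (GRCm38.p6, 250 bases before to 50 after the start) are shown because both hold the STAT element TTCNNNGAA, in capitals, which reads the same on both strands. The Cish window lies at chr9:107296409-107296708 and the Igfals window at chr17:24877594-24877893, both on the plus strand.
Cish: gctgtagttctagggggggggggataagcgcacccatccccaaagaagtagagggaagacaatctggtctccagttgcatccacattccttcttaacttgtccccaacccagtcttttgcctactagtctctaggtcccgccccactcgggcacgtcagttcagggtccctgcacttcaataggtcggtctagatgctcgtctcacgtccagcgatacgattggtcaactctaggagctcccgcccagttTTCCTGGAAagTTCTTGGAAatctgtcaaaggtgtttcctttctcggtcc
Igfals: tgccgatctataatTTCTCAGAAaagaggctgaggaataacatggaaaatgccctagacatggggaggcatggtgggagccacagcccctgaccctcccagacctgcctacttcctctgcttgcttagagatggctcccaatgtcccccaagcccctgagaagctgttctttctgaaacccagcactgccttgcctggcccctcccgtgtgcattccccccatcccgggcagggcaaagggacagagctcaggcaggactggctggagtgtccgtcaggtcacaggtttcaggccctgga
Cish holds 2 matches almost side by side at the start site, and Igfals 1 match that begins 236 bases before it. The element was found in 8.3% of all 32851 windows, in 18 of 139 windows of genes lower in knockout (12.9%) and in 3 of 103 windows of genes higher (2.91%), some genes having several windows. Among the other lower genes with a match were Slc17a2, Slc22a19, Abcc4 and Rdh16. Socs2 was not among the called genes with a match. A match is a description of these letters and shows neither a bound site nor a cause.

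Cish read 9.85 and 9.86 in wild type and 7.64 and 7.70 in knockout. Replicates lay close together in both groups, and the difference was -2.18 ± 0.12 (SE, n = 2; limma adjusted p = 0.00101). Igfals stood at 11.22 and 10.17 in wild type and 7.17 in both knockout arrays (-3.52 ± 0.32, limma adjusted p = 0.00448), and Socs2 at 9.05 and 9.02 against 7.09 and 7.43 (-1.78 ± 0.14, limma adjusted p = 0.00265). None of these groups overlapped, and all 3 calls held in each fit without 1 array. The differences were already there without serum, at -2.54 for Cish, -3.34 for Igfals and -2.22 for Socs2. The median of the axis was -0.37, with 11 negative and 6 positive differences. Igf1 itself was at 6.40 and 6.42 against 5.88 and 5.75, just short of the threshold (-0.59 ± 0.10, limma adjusted p = 0.0518).

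Glucuronosyltransferases of the Ugt2b cluster, which attach glucuronic acid to steroids and other small molecules, were higher in knockout as a run of 4 neighbouring genes on chromosome 5. Their promoters are shown because 3 of them are near-copies around a shared nuclear receptor half-site AGGTCA (capitals), searched on both strands. Each line gives 60 bases from the RefSeq windows (GRCm38.p6), all on the minus strand, at chr5:87092551-87092610 for Ugt2b36, chr5:87140333-87140392 for Ugt2b5, chr5:87254798-87254857 for Ugt2b37 and chr5:87424199-87424258 for Ugt2b38.
Ugt2b36: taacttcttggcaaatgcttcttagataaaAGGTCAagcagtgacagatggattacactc
Ugt2b5: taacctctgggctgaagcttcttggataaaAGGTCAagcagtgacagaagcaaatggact
Ugt2b37: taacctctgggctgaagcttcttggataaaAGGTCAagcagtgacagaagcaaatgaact
Ugt2b38: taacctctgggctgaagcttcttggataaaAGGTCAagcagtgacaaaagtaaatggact
Ugt2b37 and Ugt2b5 share 59 of the 60 bases, Ugt2b37 and Ugt2b38 57, and Ugt2b38 and Ugt2b5 58, while Ugt2b36 shares 43 to 45 with the others. The half-site occurs in 16.3% of all windows, in 18.4% of those of genes higher in knockout and in 23.7% of those of genes lower. The palindromic oestrogen response element, GGTCA and TGACC 3 bases apart, was in 0.07% of all windows and in 0 of the 242 windows of called genes.

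Ugt2b37 read 8.95 and 8.99 in wild type and 16.50 and 17.28 in knockout, a difference of 7.92 ± 0.25 (SE, n = 2; limma adjusted p = 0.000131). Ugt2b5 was at 9.34 and 8.85 against 14.68 and 15.01 (5.75 ± 0.35, limma adjusted p = 0.00111), and Ugt2b38 at 13.43 and 12.96 against 18.55 and 18.49 (5.32 ± 0.58, limma adjusted p = 0.0106). These genes differed by more than 5 units each, though probesets of such close copies may share signal. Ugt2b36 was at 6.21 and 6.35 against 7.46 and 7.57 (1.23 ± 0.16, limma adjusted p = 0.0204). Whether the promoter stretch or its half-site bears on these differences was not tested. Ugt2b35, which also holds the half-site, was not called (0.54 ± 0.15, limma adjusted p = 0.232), and Ugt2b34 and Ugt2b1, without it, differed by -1.10 and 0.40 with no call. The call of Ugt2b38 was lost without either wild type array at 6 days or knockout replicate 1, and that of Ugt2b36 without any single array at 6 days, at limma adjusted p up to 0.108 and 0.15.

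Of 25 conjugating enzymes 6 were higher and 1 lower in knockout, with a median of 0.08. The number higher was 3 without knockout replicate 1 or without either wild type array at 6 days. Outside the cluster, Ugt8a, the galactosyltransferase of galactocerebroside synthesis, was higher by 4.17 ± 0.19 (SE, n = 2; limma adjusted p = 0.000408). The lower member was Gsta4, the glutathione transferase of lipid peroxidation products, at 11.78 and 11.93 in wild type and 9.23 and 9.42 in knockout (-2.53 ± 0.16, limma adjusted p = 0.00122). A run of 4 N-acetyltransferase genes of the Nat8 family was higher throughout, Nat8f5 by 5.40, Nat8 by 2.24, Nat8f2 by 2.03 and Nat8f6 by 1.58. Nat8f2 and Nat8f6 were named after their values were seen. The Nat8f5 call was lost without knockout replicate 1 at 6 days (limma adjusted p = 0.0529), and that of Nat8 without this array or either wild type array at 6 days.

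Cytochrome P450 genes moved in both directions. Of 28 measured, 6 were higher and 2 lower, with a median of 0.13. Cyp2j13, an epoxygenase of the arachidonic acid family, read 8.20 and 7.76 in wild type and 16.09 and 15.40 in knockout (7.77 ± 0.48, SE, n = 2; limma adjusted p = 0.00111). Cyp2e1, which oxidises ethanol and acetone, was at 11.83 and 11.54 against 17.62 and 17.31 (5.78 ± 0.36, limma adjusted p = 0.00112). Cyp7b1, the oxysterol 7-alpha-hydroxylase, was at 5.89 and 5.61 against 10.99 and 9.75 (4.62 ± 0.36, limma adjusted p = 0.00262). In all 3 the groups were far apart, and the calls held in each fit without 1 array. For the list, the number higher was 3 without either wild type array at 6 days, and 4 without knockout replicate 1 at 6 days or an untreated wild type array. The number lower was 0 without wild type replicate 1 at 6 days, and 1 without wild type replicate 2, knockout replicate 2 or an untreated knockout array.

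The Cyp4 hydroxylases, which act on fatty acids and arachidonic acid, lie in 1 run of 6 called neighbours, 3 of them higher and 3 lower. Cyp4a12a was at 8.00 and 8.11 in wild type and 16.16 and 13.85 in knockout (6.95 ± 1.03, SE, n = 2; limma adjusted p = 0.0311). Cyp4a12b, its close copy, was at 8.45 and 8.47 against 15.69 and 13.51 (6.14 ± 0.90, limma adjusted p = 0.0296). Knockout replicate 1 was more than 2 units above replicate 2 in both, and both calls were lost in 5 of the 8 fits without 1 array: those without knockout replicate 1 at 6 days or without any of the 4 wild type arrays (limma adjusted p up to 0.189 and 0.184). Cyp4b1 was higher by 4.91 ± 0.49 (limma adjusted p = 0.00666), a call lost without either wild type array at 6 days. On the other side Cyp4a14, with its arrays at 16.94 and 16.60 against 7.80 and 10.14, was lower by 7.80 units, a difference of -7.80 ± 0.64 (limma adjusted p = 0.00308). Its call was lost without wild type replicate 1 (limma adjusted p = 0.0558). Cyp4a31 and Cyp4a32, the latter named after its values were seen, were lower at -1.45 ± 0.19 and -1.85 ± 0.20 (limma adjusted p = 0.0204 and 0.0107). The Cyp4a31 call was lost without either wild type array at 6 days or knockout replicate 1, at limma adjusted p up to 0.149.

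Carriers of organic ions and amino acids also split. Of 35 organic ion carriers 5 were higher and 6 lower, with a median of 0.04. Slco1a1, an uptake carrier of organic anions and steroid conjugates, was at 7.08 and 6.63 in wild type and 14.21 and 12.69 in knockout (6.59 ± 0.85, SE, n = 2; limma adjusted p = 0.0198). The exporter Abcc3 ran opposite, at 13.86 and 12.52 against 5.98 and 6.05 (-7.18 ± 0.39, limma adjusted p = 0.00101). Slc17a2, a member of the sodium-phosphate carrier family, was at 7.80 and 7.59 against 4.55 and 4.42 (-3.21 ± 0.12, limma adjusted p = 0.000131). Abcc3 and Slc17a2 held in all 8 fits without 1 array, while Slco1a1 was lost without either wild type array at 6 days or knockout replicate 1, at limma adjusted p up to 0.15. The number of higher carriers was 1 without wild type replicate 2 or knockout replicate 1 at 6 days, 2 without wild type replicate 1 and 3 without knockout replicate 2, and the number of lower ones was 3 without wild type replicate 1.

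A run of 9 called neighbours around the Slc22a anion carriers held both directions. Slc22a30 was higher by 3.14 ± 0.32 (SE, n = 2; limma adjusted p = 0.00714), Slc22a28 by 2.79 ± 0.39 (limma adjusted p = 0.0256) and the main basolateral anion exchanger Slc22a6 by 1.95 ± 0.24 (limma adjusted p = 0.0167). Between them Slc22a19 read 16.63 and 15.74 in wild type and 13.31 and 12.39 in knockout (-3.33 ± 0.37, limma adjusted p = 0.0111), and Slc22a29 11.24 and 10.79 against 8.38 and 7.90 (-2.88 ± 0.22, limma adjusted p = 0.00259). Nearby genes of 1 family thus differed in opposite directions. Slc22a28 was lost in 7 of the 8 fits without 1 array (all but that without wild type replicate 1 at 6 days), Slc22a6 without either wild type array at 6 days or knockout replicate 1, and Slc22a19 without wild type replicate 1. Another Slc22a run, with Slc22a14, Slc22a13 and Slc22a13b, was lower throughout, led by Slc22a13 at 13.79 and 13.40 against 10.65 and 9.83 (-3.36 ± 0.38, limma adjusted p = 0.0117). Its call was lost without either wild type array at 6 days, and its neighbours were named after their values were seen. Altogether 85 called genes lay within 3 places of another called gene, in 33 runs, of which 28 ran in 1 direction and 5 in both. Uncalled genes may lie between members of a run. No matching share over all genes was computed, so these counts are a description only.

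Of 27 amino acid carriers 1 was higher and 2 lower, with a median of -0.07. Slc7a13 showed the largest difference of all, 9.16 ± 0.78 (SE, n = 2; limma adjusted p = 0.00343). Its relative Slc7a12 was at 15.77 and 15.43 in wild type and 9.39 and 9.66 in knockout (-6.07 ± 0.71, limma adjusted p = 0.0137). Slc6a18, a carrier of neutral amino acids at the brush border, was lower at -1.90 ± 0.26 (limma adjusted p = 0.0223). Of these, Slc7a13 was called in all 8 fits without 1 array and Slc7a12 was lost without any single array at 6 days (limma adjusted p up to 0.142). Slc6a18 was lost in the 6 fits without an array at 6 days or an untreated knockout array (limma adjusted p up to 0.15).

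Lipid genes were among the calls, with some large falls, where 0.889% of all genes were called. In the list of 29 fatty acid and triglyceride synthesis genes 2 were lower and 1 higher, with a median of -0.07. Scd1, the desaturase that makes monounsaturated fatty acids, was at 14 and 14.39 in wild type and 10.08 and 10.35 in knockout (-3.98 ± 0.31, SE, n = 2; limma adjusted p = 0.00276). Elovl6, which lengthens saturated chains, was at 11.26 and 11.60 against 8.63 and 8.49 (-2.87 ± 0.19, limma adjusted p = 0.00128). Both calls held in each fit without 1 array, and both differences were smaller by value without serum, at -2.0 and -1.99, with no call for the change (limma adjusted p = 1.0 for both). Mogat1, a monoacylglycerol acyltransferase, was higher by 1.76 ± 0.17 (limma adjusted p = 0.00603) and was lost without either wild type array at 6 days. The lower count was 3 without knockout replicate 1, and the higher count 2 without knockout replicate 2. Fasn, fatty acid synthase, read 9.76 and 10.26 against 9.97 and 8.96, so its groups overlapped.

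Of 35 genes of fatty acid oxidation and the PPAR response 5 were lower and 1 higher, with a median of -0.42 against -0.08 in untreated mice. Besides Cyp4a14 and Cyp4a31 the lower ones were Acot3 (-2.87 ± 0.24, SE, n = 2; limma adjusted p = 0.00312) and Acot1 (-1.10 ± 0.14, limma adjusted p = 0.0193), neighbouring acyl-CoA thioesterases, and Fabp1, a fatty acid binding protein (-1.68 ± 0.28, limma adjusted p = 0.0486). The higher one was Acot12, a thioesterase of acetyl-CoA (1.34 ± 0.21, limma adjusted p = 0.0378), a call that survived only the fit without knockout replicate 2 at 6 days. The number lower was 1 without wild type replicate 1, 2 without wild type replicate 2 and 3 without knockout replicate 1 at 6 days or either untreated knockout array. Hao2, a peroxisomal hydroxyacid oxidase outside this list, was at 14.44 and 14.06 against 10.81 and 9.97 (-3.86 ± 0.35, limma adjusted p = 0.00426), and was lost without wild type replicate 1 (limma adjusted p = 0.0755). Acsm3, a medium-chain acyl-CoA synthetase, went the other way at 7.45 and 7.21 against 14.36 and 13.41 (6.56 ± 0.57, limma adjusted p = 0.00368), lost without either wild type array at 6 days. Of 16 genes of cholesterol synthesis and uptake 1 was called, the lanosterol demethylase Cyp51 (-2.03 ± 0.34, limma adjusted p = 0.0498), which was lost in 7 of the 8 fits without 1 array, all but the one without knockout replicate 1 at 6 days.

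Steroid and retinoid enzymes were called in both directions. Akr1c18, the 20-alpha-hydroxysteroid dehydrogenase that inactivates progesterone, read 13.73 and 12.85 in wild type and 7.63 and 8.10 in knockout (-5.42 ± 0.48, SE, n = 2; limma adjusted p = 0.00396). Of 20 steroid-converting genes it was the only one lower, and Hsd17b11 the only one higher (2.69 ± 0.36, limma adjusted p = 0.0224). The 22 retinoid genes included 4 calls: the retinol oxidisers Adh1 (3.13 ± 0.28, limma adjusted p = 0.00396) and Rdh10 (1.25 ± 0.17, limma adjusted p = 0.0249) were higher, and Rdh16 (-1.68 ± 0.16, limma adjusted p = 0.00562) and Rdh7 (-1.14 ± 0.15, limma adjusted p = 0.0198) were lower. Rdh16, Rdh19 and Rdh7 are neighbours and were all lower, Rdh19 being named after its values were seen. Akr1c18 was lost without wild type replicate 1 at 6 days (limma adjusted p = 0.0603) and Rdh10 in all 8 fits without 1 array. Hsd17b11 was lost without either wild type array at 6 days, knockout replicate 1 or untreated wild type replicate 1, and Rdh7 without the first 3 of these arrays. Nr1h4, the bile acid receptor FXR, was the only called gene of 12 other steroid and related receptors (1.64 ± 0.23, limma adjusted p = 0.0236), and it was lost without any single array at 6 days.

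Of 29 eicosanoid genes 4 were higher (0.401% of all genes) and 2 lower (0.488% of all genes), 1 of the lower, the prostaglandin dehydrogenase gene Hpgd, by -1.81 ± 0.28 (SE, n = 2; limma adjusted p = 0.0386), with Ephx2, the soluble epoxide hydrolase, higher by 1.96 ± 0.29 (limma adjusted p = 0.033). The number higher was 1 without knockout replicate 1 at 6 days or any wild type array, and the number lower 0 without wild type replicate 1 at 6 days and 1 without any of the other knockout or 6-day arrays. Hpgd was lost in the 6 fits without a 6-day or untreated knockout array and Ephx2 in all but that without knockout replicate 2 at 6 days. Of 21 genes of cholesterol efflux and lipoproteins 1 was higher, and of 9 adipocyte genes 1 was lower, Lgals12, a galectin of lipid droplets (-1.21 ± 0.09, limma adjusted p = 0.00262). Of 25 mitochondrial respiratory genes, 16 genes of endoplasmic reticulum stress and 2 erythroid genes 0 were called, with 1 stress gene called without knockout replicate 1 at 6 days.

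Read by sex bias, 14 of 21 genes listed as higher in male kidney were higher in the female knockout mice and 0 lower, with a median of 4.62. Of 9 genes listed as higher in female kidney 0 were higher and 7 lower, with a median of -3.52. Both lists were compiled with earlier results of these data known, so their direction is a description and no independent evidence. The list mean of the male-biased genes was 10.96 and 10.66 in the wild type arrays and 15.32 and 14.38 in the knockout arrays, and that of the female-biased genes 12.69 and 12.12 against 8.05 and 8.17. The medians were nearly the same without serum, at 4.51 and -3.34. Leaving out either wild type array at 6 days brought the male-biased count to 6, and leaving out knockout replicate 1 brought it to 8, while the female-biased count was 4 without wild type replicate 1. The male-biased genes not called included Kap, the androgen-regulated kidney protein, which stood near the top of the scale in all 4 arrays at 19.46 to 19.72. Pzp, a plasma protease inhibitor and the only called gene among 19 metalloproteases and protease inhibitors, was at 5.69 and 5.56 against 14.49 and 12.55 (7.89 ± 0.62, SE, n = 2; limma adjusted p = 0.00272).

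**Figure D3:**
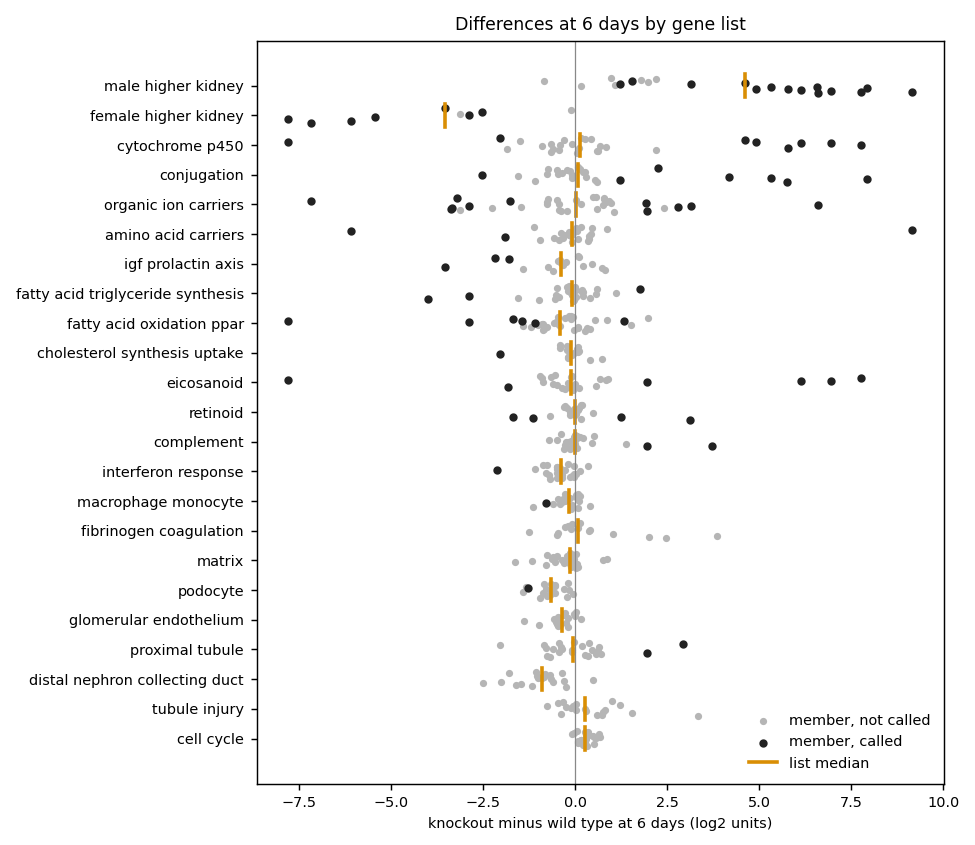
Knockout minus wild type difference at 6 days in log2 units (horizontal axis) for the measured members of 23 gene lists, with called genes in black, others in grey and the list median as an orange bar. The genes listed as higher in male kidney centre on 4.62 and those listed as higher in female kidney on -3.52. Smaller medians belong to the podocyte (-0.66), interferon (-0.39), glomerular endothelium (-0.36), macrophage (-0.17), matrix (-0.13), complement (-0.01) and fibrinogen (0.08) lists.

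Cell type markers show what the extracts held. Podocyte genes were well represented, as for Nphs1, the nephrin gene, at 12.71 and 11.60 in wild type and 10.69 and 11.74 in knockout. Tubule RNA was present too, with a proximal tubule list mean of 14.91 and 14.67 in wild type and 15.16 and 14.55 in knockout at 6 days. That lay above the podocyte list mean in every array, at 11.04 and 10.42 in wild type and 9.76 and 10.36 in knockout. Tubule markers were thus the stronger signal, though means over different genes give no shares of cell types. In such bulk extracts fewer cells of a type and less RNA per cell cannot be told apart. The difference in the proximal tubule list had a median of -0.06, with 2 of 24 markers higher (Acsm2, 2.93, and Slc22a6, 1.95) and 0 lower. Both calls were lost without either wild type array at 6 days or knockout replicate 1, and without the last 1 marker was lower. Adding proximal tubule minus podocyte level of each array as a covariate left 105 called genes, 96 of them among the 268.

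Of the glomerular markers 1 podocyte gene was called. All 19 podocyte genes had a negative difference, 8 of them without overlap of the groups (20.7% of all genes), and the median was -0.66 at 6 days against -0.46 in untreated mice. The list mean was 11.04 and 10.42 in wild type and 9.76 and 10.36 in knockout. Npnt, a matrix ligand of the basement membrane, was the only one called (-1.28 ± 0.18, SE, n = 2; limma adjusted p = 0.0264), and the call was lost in all 8 fits without 1 array. The transcription factor gene Tcf21 had the largest difference, at 10.34 and 9.23 in wild type and 8.12 and 8.64 in knockout (-1.41 ± 0.36, limma adjusted p = 0.175). Glomerular endothelium (18 genes), mesangium and smooth muscle (11 genes) and parietal epithelium (12 genes) had 0 called and medians of -0.36, -0.35 and -0.24, and the array means of these 3 lists overlapped between genotypes. How far the podocyte marker level enters the other differences was not tested beyond the covariate fit.

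Distal nephron and collecting duct markers had lower values in knockout at 6 days, with 0 of 19 called, or 1 without knockout replicate 1 at 6 days. The difference was negative for 18 of 19, and for 17 both knockout arrays were below both wild type arrays (20.7% of all genes), with a median of -0.91 against -0.22 without serum. Calb1, the calcium buffer calbindin of the distal tubule, was at 12.31 and 11.08 in wild type and 9.85 and 8.52 in knockout (-2.50 ± 0.56, SE, n = 2; limma adjusted p = 0.127), after 12.27 and 11.70 against 12.84 and 11.97 without serum. Trpm6, the magnesium channel of the same segment, was at 10.99 and 10.20 against 8.90 and 8.26 (-2.01 ± 0.39, limma adjusted p = 0.0827). Kcnj1, the potassium channel ROMK, came nearest to the threshold (-1.48 ± 0.25, limma adjusted p = 0.0558). Umod, the uromodulin gene of the thick ascending limb, had among the smallest differences (-0.24 ± 0.20, limma adjusted p = 0.757). A called gene outside this list was S100g, the small calcium-binding protein calbindin-D9k, at 9.76 and 9.78 against 8.50 and 7.90 (-1.57 ± 0.21, limma adjusted p = 0.0217), which was lost without either wild type array at 6 days (limma adjusted p up to 0.15).

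**Figure D4:**
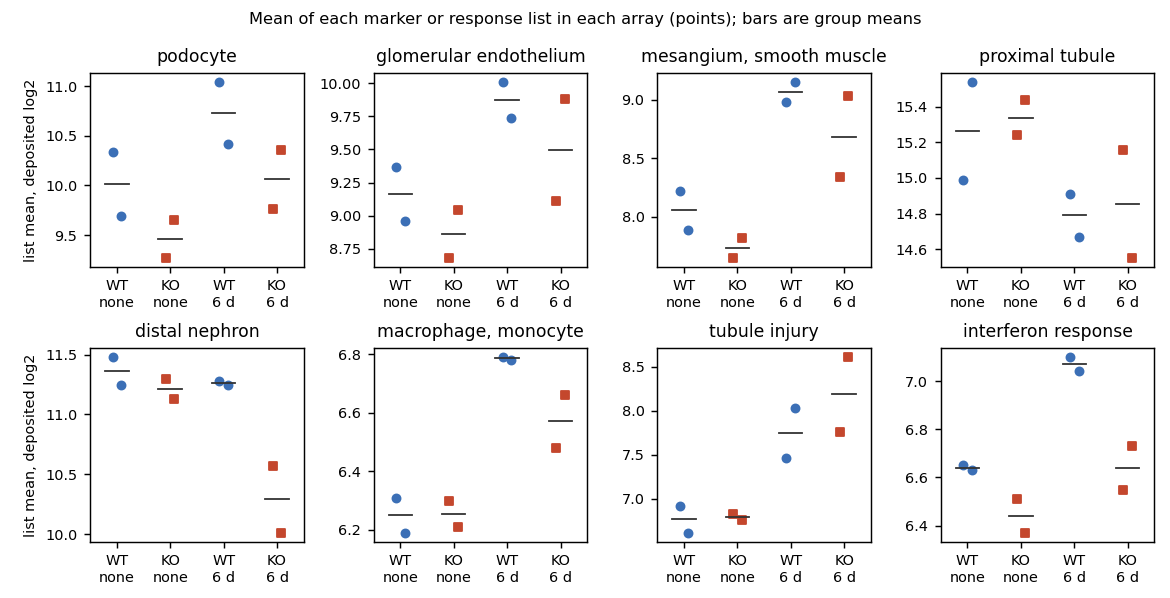
Mean deposited log2 value of 8 marker or response lists in single arrays (points, 2 per group), with bars at the group means, for wild type (WT, blue circles) and knockout (KO, red squares) without serum and at 6 days. The distal nephron mean is 10.57 and 10.01 in knockout at 6 days against 11.28 and 11.25 in wild type, and the interferon mean is 6.55 and 6.73 against 7.10 and 7.04.

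Some injury and coagulation genes had higher values in knockout, with wide spread between the 2 mice of a group. Havcr1, the tubule injury marker KIM-1, was at 6.83 and 9.19 in wild type and 10.31 and 12.39 in knockout (3.34 ± 0.84, SE, n = 2; limma adjusted p = 0.174). The fibrinogen chain gene Fgg was at 9.33 and 13.65 against 14.57 and 16.14 (3.86 ± 1.22, limma adjusted p = 0.29), and Fga and Fgb differed by 2.48 and 2.02. In each of these wild type replicate 1 was the lowest array, and replicate 2 lay more than 2 units above it. Of 19 tubule injury genes and 15 fibrinogen and coagulation genes 0 were called, with medians of 0.28 and 0.08. Without knockout replicate 1 at 6 days 2 of the tubule injury genes were called, and 1 of the coagulation genes. Without wild type replicate 2 the latter count was 2. Cell cycle genes had 23 of 25 positive differences, a median of 0.28 and 0 called. Matrix genes had 0 of 31 called and a median of -0.13, with fibronectin (Fn1) at 10.53 and 10.23 against 8.32 and 9.16 (-1.63 ± 0.39, limma adjusted p = 0.147). Without either untreated wild type array 1 matrix gene was called. These counts cover listed genes only. Called higher in knockout outside the coagulation and matrix lists were Serpinf2 (3.05), Apoh (3.0) and Lama3. They were named after their values were seen, and of them only Serpinf2 was called in all 8 fits without 1 array.

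Most of the genotype difference at 6 days was already present in mice without serum. Of the 268 genes, 260 (97.0%) had the same sign in the untreated arrays, against 63.4% of all genes. In 254 (94.8%, against 32.8% of all genes) the untreated groups did not overlap and lay in the same order, and in 0 did they lie in the opposite order. The untreated arrays also entered the spread by which these genes were called. Genes with close untreated replicates were thereby favoured, so the shares without overlap are a description and no independent evidence. In untreated mice 248 genes (0.823%) were called, and 157 genes were called at both points, all with the same sign, which is 58.6% of the calls at 6 days and 63.3% of the untreated calls. The test of whether the difference itself changed called 0 of 30142 genes in limma, with 1135 at an unadjusted p under 0.05, of which 71 were among the 268. After C4a and C4b its smallest p-values belonged to S100g (-1.76 ± 0.29), Ifi27l2a (-0.91 ± 0.15), Tyrobp (-0.76 ± 0.13) and Bst2 (-1.21 ± 0.22; SE, n = 2), none of which passed (limma adjusted p = 1.0).

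**Figure D5:**
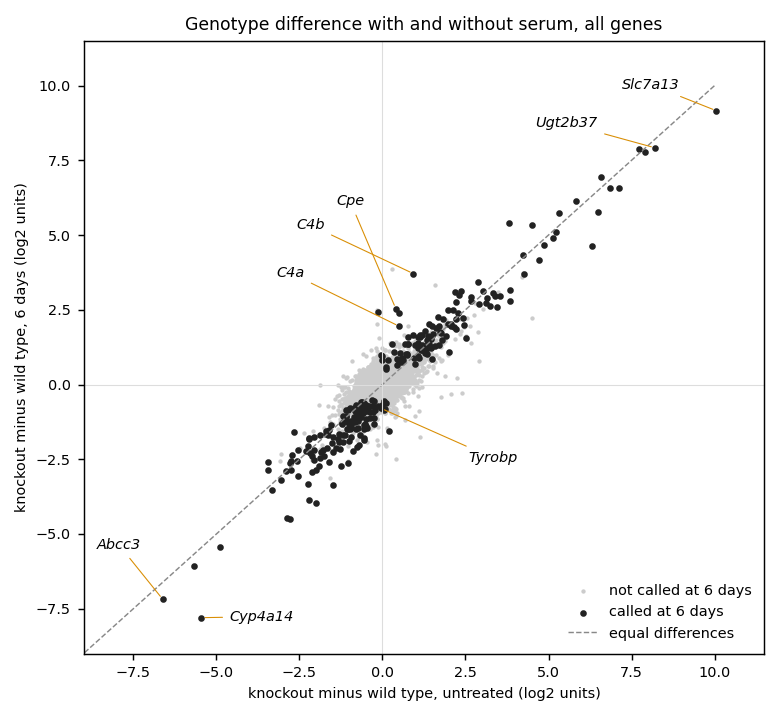
Knockout minus wild type difference in untreated mice (horizontal axis) against the same difference at 6 days (vertical axis), both in log2 units, for 30142 genes. Called genes (black) mostly follow the dashed line of equal differences, and C4b, at 0.93 without serum and 3.71 at 6 days, lies above it.

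Only 14 of the 268 genes overlapped between genotypes in untreated mice, and 8 of them have names. Beside Tyrobp, Ifi27l2a and S100g these were the prohormone processing enzyme gene Cpe, at 9.0 and 9.37 in wild type and 11.55 and 11.91 in knockout (2.54 ± 0.36, SE, n = 2; limma adjusted p = 0.0264) after 0.40 without serum, and Ctxn3, a cortexin (1.35 ± 0.17, limma adjusted p = 0.017). On the lower side were Slc51b, a subunit of the bile acid exporter of the basolateral membrane (-1.31 ± 0.18, limma adjusted p = 0.0233), the oxoglutarate receptor gene Oxgr1 (-0.85 ± 0.14, limma adjusted p = 0.0424) and the interferon-inducible Xaf1 (-0.68 ± 0.11, limma adjusted p = 0.0482). Cpe, Ctxn3, Slc51b and Xaf1 were named after their values were seen. Their calls rest on little: Cpe and Slc51b were lost in 6 of the 8 fits without 1 array (all but those without an untreated knockout array), Oxgr1 in 7 (all but that without knockout replicate 1 at 6 days), Xaf1 in all 8, and Ctxn3 in the 3 without a wild type array or knockout replicate 2 at 6 days, at limma adjusted p up to 0.19.

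At 2 weeks, when the tubule injury mean of the knockout arrays was 6.57 and 8.42, 224 of the 268 genes (83.6%) kept the sign of 6 days, against 56.7% of all genes. The groups lay in that order without overlap in 101 of 121 higher genes (83.5%) and 65 of 147 lower genes (44.2%), against 22% of all genes, and the difference between the directions was not tested. The lower genes had a median difference of -0.24 at 2 weeks against -1.45 at 6 days, and the higher genes 1.81 against 1.76. Cyp4a14, for example, read 14.38 and 16.27 in wild type and 8.31 and 14.21 in knockout at 2 weeks, so that 1 knockout array lay close to the wild type range. For Igfals the 2-week arrays were at 6.71 and 8.02 in wild type, down from 11.22 and 10.17 at 6 days, against 6.54 and 6.15 in knockout. The female-biased list mean was likewise lower in wild type at 2 weeks, at 8.97 and 9.93 after 12.69 and 12.12 at 6 days. In knockout that mean was 8.18 and 8.13 at 2 weeks. The male-biased list mean in wild type was 10.31 and 10.32 at 2 weeks after 10.96 and 10.66. At 18 hours, where 2 arrays went against their labels, 113 of the 268 genes (42.2%) had the sign of 6 days, against 50.7% of all genes, and in 0 were the groups clear of each other in that order, against 16.4% of all genes.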

How the data were processed

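RNA from glomerular extracts was measured on Affymetrix arrays, 1 per mouse. The deposited values are log2 values of 72688 probesets, summarised and normalized by the authors. The software was Transcriptome Analysis Console and Expression Console from Affymetrix, per the submitters' processing notes. The summarisation, annotation build and software versions were not given in the sources used here. Of the probesets, 30604 carry exactly 1 gene symbol, 2146 several and 39938 none. Symbols of 827 were updated by Entrez identifier, and 30294 of the 30604 were found in the reference. Where several probesets shared a gene (355 genes), the one with the highest mean over 16 arrays stood for it, giving 30142 genes. Dim genes were kept, and every column of values was used.

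Limma 3.58.1 (R 4.3.3) was fitted with a mean for each of 4 groups (both genotypes, untreated and 6 days; 8 arrays, 4 residual degrees of freedom, prior degrees of freedom 3.36) and an intensity trend. The arrays at the other times were kept out of this fit with earlier results of these data known. The choice of arrays was therefore not independent of their values. Benjamini-Hochberg adjustment ran over all genes, and genes were called under 0.05. The procedure was tested on simulated data. Alternatives changed the arrays in the fit, the filter, the probesets, the normalization, the moderation, the covariate and the replicate term, or left out each array in turn.

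Of 40 gene lists, 714 of 796 genes were measured, and 66 genes stand in more than 1 list. Members and lists were chosen with earlier results of these data known. Named were Esr1, C4a and C4b, the 15 largest rises and falls among called genes with groups that did not overlap, called members and up to 4 largest differences of each list, and the 10 smallest p-values for the change in the genotype difference. Predicted transcripts, pseudogenes, small RNAs, odorant receptors and receptor segments (45 of the called genes) were counted only. Promoter windows were found in RefSeq (GRCm38.p6) for 194 of the 268 called genes.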

Additional observations from a re-analysis of the deposited data

Results flagged for a closer look

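Probesets without a gene symbol, which no comparison above uses, also carried differences. In a limma fit of all 72688 probesets, 64 of the 39938 without a symbol (0.16%) differed between knockout and wild type at 6 days at an adjusted p under 0.05, 34 higher and 30 lower in knockout. The 0.889% of the main comparison was adjusted over 30142 genes and not over all probesets, so it is no like measure for this share. What these probesets read was not analysed here.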

How the results depend on the processing

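The 268 calls at 6 days became 2 with all 16 arrays, 71 with 14 arrays (without both 18-hour replicates numbered 2), 71 with the 12 arrays other than those at 18 hours, 113 with only the 4 arrays at 6 days and 105 with the tubule covariate. All 2, 71 and 71, 103 of the 113 and 96 of the 105 were among the 268. Leaving out 1 array in turn gave 59 to 214 calls. Of these sets of arrays the main one, chosen with earlier results of these data known, gave the most calls. The fits with more arrays add other groups' spread, and those with fewer have fewer degrees of freedom. Leaving out dim genes, averaging probesets, quantile normalization, median centring, moderation without a trend or with robust settings kept the count within 1.5 times, and these scalings moved the median of all genes by no more than 0.05. C4a and C4b were called under every alternative run and Esr1 under none, and of 69 named genes 0 changed sign under any. The change in the genotype difference between untreated and 6 days called 0 genes in limma under every alternative run. It cannot be computed from the 4 arrays at 6 days alone. With replicate number as a replicate block 262 genes were called, 214 of them among the 268. Deviations of arrays with the same number correlated between -0.252 and 0.178 over 6 pairs of groups. Such values cannot show whether arrays with the same number were handled together. The labels state no pairing of mice, and the block is not read as one.

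With 2 mice per group, differences under about 0.5 log2 units were not called at all, the smallest called being 0.52 against a median SE of 0.13. Values near the array's lower end carry little signal over background, which the files do not give.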
